A study of Homo sapiens with 12 samples.

Results

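In Huh7 liver cancer cells given 15 µM choline, 340 of 19974 protein-coding genes (1.70%) carried an H3K27ac summit at an end of the gene where cells without choline had none nearby. The members were chosen by the measured H3K27ac summits themselves. A gene entered when the 15 µM list had a summit within 1 kb of either annotated gene end and no 0 µM summit lay closer than 2 kb to either end. The 340 genes were 10.5% of the 3228 genes with H3K27ac at an end at 15 µM, and 2696 of those 3228 also had a 0 µM summit within 1 kb. In the opposite direction, 2482 genes had H3K27ac at an end only at 0 µM by the same distances. Because the H3K27ac contrast made the choice, its values at these ends are given as a description and were not tested.

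Huh7 is an established human hepatocellular carcinoma line, labelled here as wild type. One set of cultures received 15 µM choline for 48 h and the control set received 0 µM choline, both in a custom DMEM made without choline chloride in which B-27 took the place of serum. Chromatin was immunoprecipitated with antibodies to H3K27ac (Active Motif) and to H3K4me1 (Cell Signaling Technology), with 1 library for every mark at every dose. Every difference below is therefore between 2 libraries of a single line and has no replicate check, and the input, RNA-seq and CUT&Tag samples of the series were not analysed here.

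H3K27ac, acetylation of lysine 27 of histone H3, is laid down by the acetyltransferases p300 and CBP and sits at active promoters and active enhancers. H3K4me1, monomethylation of lysine 4, is written mainly by the MLL3 and MLL4 complexes, covers enhancers, and at an active promoter typically flanks the start site, where trimethylation takes its place. Choline is a nutrient that liver cells use to make phosphatidylcholine and, through betaine, to regenerate methionine, the precursor of the methyl donor S-adenosylmethionine.

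Each list gives the position of a summit, the point of highest signal in a called peak, with the authors' score, taken to be −log10 of a p-value (or of a q-value). The H3K27ac lists held 29305 summits at 15 µM and 37946 at 0 µM on chromosomes 1 to 22 and X, and the H3K4me1 lists held 349202 at 15 µM and 343156 at 0 µM. Read depth is unknown, and the number of summits listed can move with depth as well as with chromatin. The lowest listed score was 5.01 in both H3K27ac lists, and 1.30 at 15 µM and 1.31 at 0 µM in the H3K4me1 lists. Of 14 hepatocyte markers, 13 had an H3K27ac end at 15 µM and 10 at 0 µM, and SERPINA1, the gene of alpha-1-antitrypsin, had none at either dose.

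Promoter windows of a few members are printed as examples of sequence near the listed summits. ID1, NQO1 and SRRM1 are shown for their 15 µM scores. These were the highest among members with a promoter sequence and a summit within 500 bp of the start. The top summits of these genes lay outside the printed windows. That of ID1 was 131 bp after the start, and those of NQO1 and SRRM1 were 349 bp and 471 bp before it. FMO1, NUDT8 and PTPRG are among the 38 members whose top summit lay inside the window. The windows of FLRT3, PROC and COPS7B were also extracted but are not shown. Of all 9 windows extracted, 5 held CCCGCCC and 2 held CCCACCC. Each window runs from 250 bases before to 50 bases after the start and comes from RefSeq. Capitals mark the GC-rich letters CCCGCCC and CCCACCC on either strand, the kind of motif that SP and KLF zinc-finger factors are known to bind. No window printed held the third such motif searched, CCACACCC.
ID1 promoter, GRCh38.p14 chr20:31605039-31605338, plus strand: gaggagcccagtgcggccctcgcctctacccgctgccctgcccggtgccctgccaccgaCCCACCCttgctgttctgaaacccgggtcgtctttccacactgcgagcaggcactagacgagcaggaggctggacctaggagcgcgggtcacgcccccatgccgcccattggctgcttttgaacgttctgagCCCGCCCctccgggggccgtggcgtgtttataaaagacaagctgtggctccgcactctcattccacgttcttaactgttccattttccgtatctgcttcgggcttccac
NQO1 promoter, GRCh38.p14 chr16:69726511-69726810, minus strand: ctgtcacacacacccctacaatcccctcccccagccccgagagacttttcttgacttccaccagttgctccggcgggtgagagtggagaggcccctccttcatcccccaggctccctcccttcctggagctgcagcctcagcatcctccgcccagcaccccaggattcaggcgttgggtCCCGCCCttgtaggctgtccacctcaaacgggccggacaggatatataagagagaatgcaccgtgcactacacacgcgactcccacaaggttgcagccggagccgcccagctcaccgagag
SRRM1 promoter, GRCh38.p14 chr1:24643052-24643351, plus strand: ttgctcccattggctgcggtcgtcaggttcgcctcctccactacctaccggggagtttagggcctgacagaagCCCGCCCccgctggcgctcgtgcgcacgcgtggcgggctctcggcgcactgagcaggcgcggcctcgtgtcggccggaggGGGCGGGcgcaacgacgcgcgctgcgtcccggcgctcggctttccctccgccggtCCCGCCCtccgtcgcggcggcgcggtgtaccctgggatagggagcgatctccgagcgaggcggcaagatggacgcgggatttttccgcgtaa
FMO1 promoter, GRCh38.p14 chr1:171248244-171248543, plus strand: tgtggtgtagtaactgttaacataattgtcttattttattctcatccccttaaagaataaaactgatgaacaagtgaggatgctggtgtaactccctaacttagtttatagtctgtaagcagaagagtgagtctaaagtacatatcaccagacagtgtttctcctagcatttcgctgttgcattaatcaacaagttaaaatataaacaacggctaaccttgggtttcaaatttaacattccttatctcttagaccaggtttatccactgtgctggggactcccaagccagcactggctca
NUDT8 promoter, GRCh38.p14 chr11:67629888-67630187, minus strand: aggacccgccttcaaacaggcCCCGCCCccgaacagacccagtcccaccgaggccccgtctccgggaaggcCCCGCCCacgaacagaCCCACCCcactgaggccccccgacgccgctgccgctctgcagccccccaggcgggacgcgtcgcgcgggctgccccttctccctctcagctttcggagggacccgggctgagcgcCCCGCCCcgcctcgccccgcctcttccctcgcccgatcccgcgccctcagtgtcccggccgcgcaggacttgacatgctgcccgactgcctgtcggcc
PTPRG promoter, GRCh38.p14 chr3:61561321-61561620, plus strand: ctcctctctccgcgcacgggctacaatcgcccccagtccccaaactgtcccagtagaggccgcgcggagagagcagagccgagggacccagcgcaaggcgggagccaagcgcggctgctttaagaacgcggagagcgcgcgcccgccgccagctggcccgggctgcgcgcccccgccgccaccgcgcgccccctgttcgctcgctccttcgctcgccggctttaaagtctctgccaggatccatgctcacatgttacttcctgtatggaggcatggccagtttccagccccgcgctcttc

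The windows differed widely in base composition. The SRRM1 window was 72.0% G and C with 46 CpG dinucleotides and 3 matches to CCCGCCC, and the NUDT8 window was 75.3% G and C with 34 CpG, 3 such matches and 1 to CCCACCC. The ID1 window, at 62.7% G and C, had 1 match to each of these motifs and a TATA box-like TATAAA, matched on both strands at 1 overlapping stretch. The NQO1 window, also 62.7% G and C, had 1 match to CCCGCCC. FMO1 was the AT-rich case, with 38.3% G and C and 2 CpG, and PTPRG had 68.7% and 34 CpG, and neither had a capital. Of 15812 RefSeq promoters of protein-coding genes, 44.4% held CCCGCCC, 21.6% held CCCACCC and 3.38% held CCACACCC on either strand. Only 260 of the 340 genes (76.5%) had a promoter sequence, so base composition and motif shares over the members were not compared with other genes. A match is a description of letters and not a binding site.

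By the rule every member had a summit within 1 kb of a gene end, and where strand was known most were at starts. The highest-scoring summit of a member lay a median of 374 bp from the end, inside the gene for 176 members and outside it for 164. Strand was known for the 260 members with a promoter sequence, and in 227 of them (87.3%, exact Clopper-Pearson 95% interval 82.6 to 91.1) a summit lay within 1 kb of the start. Of these 260, 221 had it at the start alone, 33 at the other end alone and 6 at both ends, among them AFM, IRF2BP2 and the histone gene H2BC11. The share at starts was not computed for other classes of ends. There was 1 summit at the ends of 312 members and 2 or more at 28. TFE3, a transcription factor of lysosome biogenesis, and IRF2BP2, a transcriptional co-repressor, had the most, 5 summits each within 2 kb. Members were found on all 23 chromosomes examined, from 1 of 239 genes on chromosome 21 (0.418%) to 17 of 715 on chromosome 8 (2.38%).

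**Figure D1:**
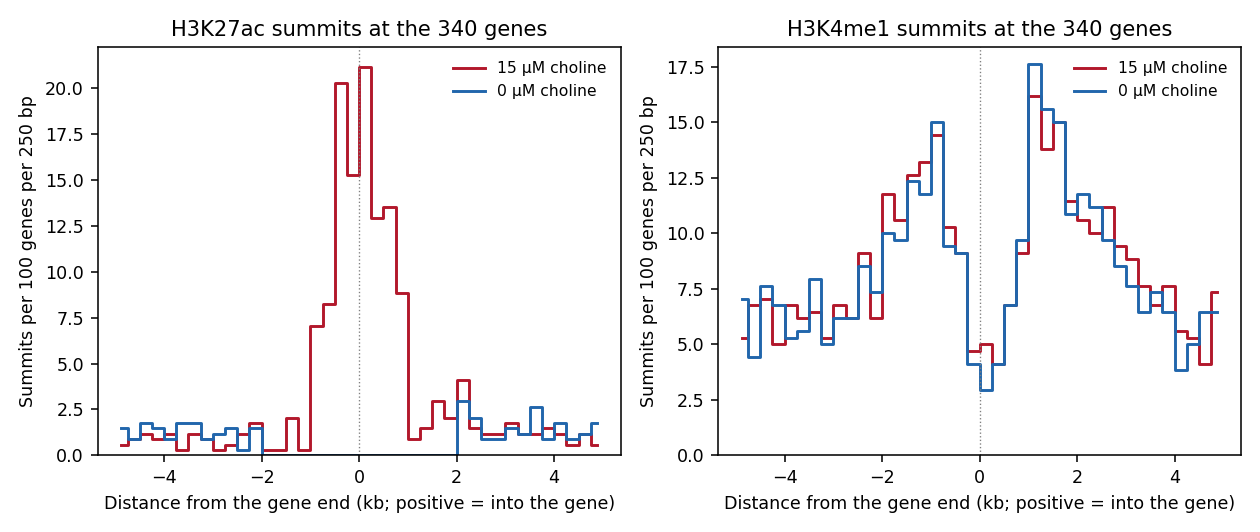
H3K27ac (left) and H3K4me1 (right) summits per 100 genes in 250 bp steps by distance in kb from the nearer end of the 340 genes, positive into the gene, for 15 µM choline (red) and 0 µM choline (blue). The 0 µM H3K27ac line is at 0 within 2 kb because the rule requires it, while both H3K4me1 lines dip at the end and are highest 1 to 1.5 kb into the gene.

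Neighbouring genes often shared a summit, so the 340 genes do not stand for 340 separate events. There were 303 distinct top summits, and 73 members shared 36 of them. Strand was known for both genes in 23 such pairs, of which 20 ran head to head, so that 1 summit lay within 1 kb of both divergent starts. SDHA, the flavoprotein subunit of succinate dehydrogenase, shared its summit with CCDC127. CYP39A1, an oxysterol hydroxylase of bile acid synthesis, shared one with the mitochondrial carrier SLC25A27, and IDH3G, a subunit of mitochondrial isocitrate dehydrogenase, shared one with the translocon subunit SSR4. The top summit of 88 members also lay within 1 kb of an end of another protein-coding gene, member or not, and that of 45 members within 1 kb of a lncRNA gene. At 214 members it lay near neither.

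Most of the summits scored low within their own list. The 15 µM score at the member ends had a median of 8.96, quartiles of 7.13 and 11.2 and a range of 5.19 to 39.8, against a median of 10.3 over the whole 15 µM list. Of the 340 members, 120 were above that list median and 5 (1.47%) were in the highest-scoring 10% of the list. At the 2696 ends with H3K27ac at both doses the median 15 µM score was 11.7, and 336 (12.5%) were in that 10%. The scores come in steps, with 120 distinct values over the 303 summits and 226 summits that share their value with another, so small differences in rank carry little.

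The highest scores belonged to genes of several kinds. ITIH2 (chr10:7703316-7749520, hg38), which encodes a heavy chain of the plasma inter-alpha-trypsin inhibitors, had a score of 39.8 at a summit 300 bp inside the gene. The 0 µM H3K27ac summit nearest to an end of ITIH2 lay inside the gene, 2576 bp from that end, and the one nearest to the 15 µM summit lay 2835 bp from it. FLRT3 (chr20:14322985-14337612, minus strand), a leucine-rich repeat membrane protein, followed with 24.4, at a summit 875 bp inside the gene, and its nearest 0 µM summit lay 1323 bp from the 15 µM one. ID1 (chr20:31605289-31606510, plus strand), which binds and blocks bHLH transcription factors and is a known BMP target, had 23.2 at 131 bp from its start. NQO1 (chr16:69709401-69726560, minus strand), a quinone reductase and a known NRF2 target, had 22 at 349 bp upstream of its start, with 3 summits within 2 kb. These were also genes with a 0 µM summit not far off, at 2159 bp from an end of ID1 and 3832 bp from an end of NQO1.

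SRRM1 (chr1:24643302-24673281, plus strand), an SR-related splicing coactivator, differed from these in its surroundings. It had a score of 21.5 at 471 bp upstream of its start, and no 0 µM summit lay within 32368 bp of its ends. Next in order came PDE8A, a cAMP phosphodiesterase, with 19.5, CYP2C18, a cytochrome P450, with 18.9, and UBE2H, a ubiquitin-conjugating enzyme, with 18.7. HPR, the haptoglobin-related protein of plasma, had 18.5, and AFM, the vitamin E-binding plasma protein afamin, had 17.6. KLHDC2, a substrate receptor of a cullin ubiquitin ligase, and MFN1, a mitofusin of mitochondrial fusion, closed the group of 12 with 15.9 each, a value that TRIM35, next in the order, shares.

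How far the 0 µM H3K27ac lay varied over nearly the whole range the rule allows. The median distance from the ends to the nearest 0 µM summit was 11874 bp (95% interval of the median 9335 to 15968, from order statistics with each gene counted separately). It was 2 to 3 kb for 43 members, 3 to 5 kb for 54, 5 to 10 kb for 59, 10 to 50 kb for 108 and over 50 kb for 76. Measured from the 15 µM summit itself, where the rule leaves at least 1 kb clear, 17 members had a 0 µM summit within 2 kb and 82 within 5 kb. The 0 µM list had a summit somewhere in the body of 120 members, and the bodies of the other 220 were empty. Over all protein-coding genes, where no 2 kb limit applies, the median distance from the ends to a 0 µM summit was 19242 bp. At ends with H3K27ac only at 0 µM, the median to the nearest 15 µM summit was 35322 bp, against 46919 bp over all protein-coding genes.

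The members just inside the 2 kb limit were AFM at 2049 bp, the mitochondrial acyl-CoA synthetase ACSS3 at 2058 bp, KIAA1958 at 2070 bp, the focal adhesion protein TNS3 at 2091 bp and the ubiquitin ligase ZNRF3 at 2092 bp. Just outside it were GLI1 at 1996 bp, SMPDL3A at 1987 bp, PCSK4 at 1962 bp, GCLM at 1960 bp and RAP1B at 1949 bp. In all, 192 genes with a 15 µM summit within 1 kb had their nearest 0 µM summit between 1 and 2 kb and so were not members. For 26 members that summit lay between 2 and 2.5 kb.

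At the other extreme, 44 members had no 0 µM summit within 100 kb. PRMT9, an arginine methyltransferase that modifies the splicing factor SF3B2, was the farthest, with 1115650 bp to the nearest 0 µM summit and a 15 µM score of 7.41. UPRT had a summit of score 5.43, at 864183 bp. The pair CCDC127 and SDHA had 8.27, at 674427 bp for CCDC127 and 623834 bp for SDHA. MEX3B, an RNA-binding protein, had 6.35 at 486907 bp, ZNG1C had 6.03 at 479770 bp, and GUF1, a GTPase of mitochondrial translation, had 13.2 at 476673 bp. The 184 members over 10 kb from 0 µM H3K27ac had a median score of 8.32, against 9.15 for the 156 within 10 kb.

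**Figure D2:**
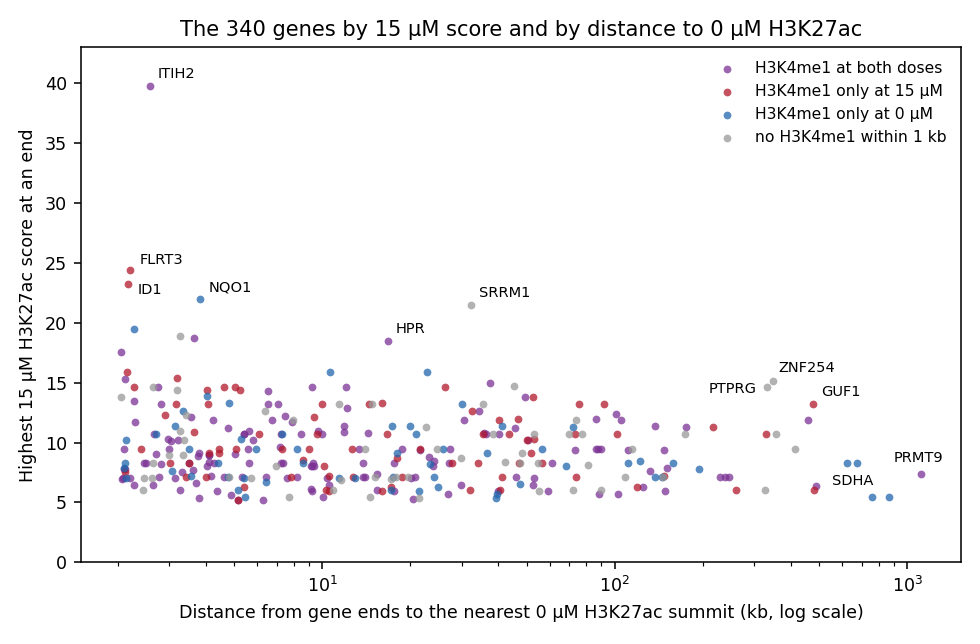
Each of the 340 genes by the distance in kb from its ends to the nearest 0 µM H3K27ac summit (x, log scale) and by its highest 15 µM H3K27ac score at an end (y, −log10 of a p-value or of a q-value), coloured by the doses at which H3K4me1 lay within 1 kb. ITIH2 stands alone at 39.8, and PRMT9 lies farthest right at a score of 7.41.

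H3K4me1 was not used to choose the genes. A 15 µM H3K4me1 summit lay within 1 kb of an end at 223 members (65.6%, exact Clopper-Pearson 95% interval 60.3 to 70.6), and a 0 µM one at 206 (60.6%, 55.2 to 65.8). The difference of 5.00 percentage points compares with −1 at the 2696 ends with H3K27ac at both doses, 0.443 at the 2482 ends with H3K27ac only at 0 µM and 1.25 over all genes. The intervals of the doses overlap at the members, but both shares are over the same genes, so the overlap does not measure the difference. Within 2 kb the shares were 94.7% at 15 µM and 92.1% at 0 µM. The intervals cover counting error only, 1 library per dose leaves no replicate spread, and neighbours share summits, so no test was made.

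Counted by gene, H3K4me1 lay within 1 kb at both doses at 147 members, at 15 µM alone at 76 (22.4%, 18.0 to 27.2), at 0 µM alone at 59 (17.4%, 13.5 to 21.8) and at neither dose at 58. At the ends with H3K27ac at both doses the share was 16.4% (15.0 to 17.8) for 15 µM alone and 17.4% (16 to 18.9) for 0 µM alone. Under the rule used for H3K27ac, with no summit of the other dose within 2 kb, 13 members (3.82%, 2.05 to 6.45) had an H3K4me1 end only at 15 µM, against 5.76% of all genes. By the same rule 9 members (2.65%, 1.22 to 4.97) had one only at 0 µM, against 4.61% of all genes. The members' intervals hold the all-gene share in both cases. Of the 2696 ends with H3K27ac at both doses, 54 had H3K4me1 only at 15 µM by this rule and 55 (2.04%) only at 0 µM, and at ends with H3K27ac only at 0 µM the shares were 2.74% for 15 µM alone and 2.05% for 0 µM alone. The remaining members with H3K4me1 at a single dose had a summit of the other dose between 1 and 2 kb.

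**Figure D3:**
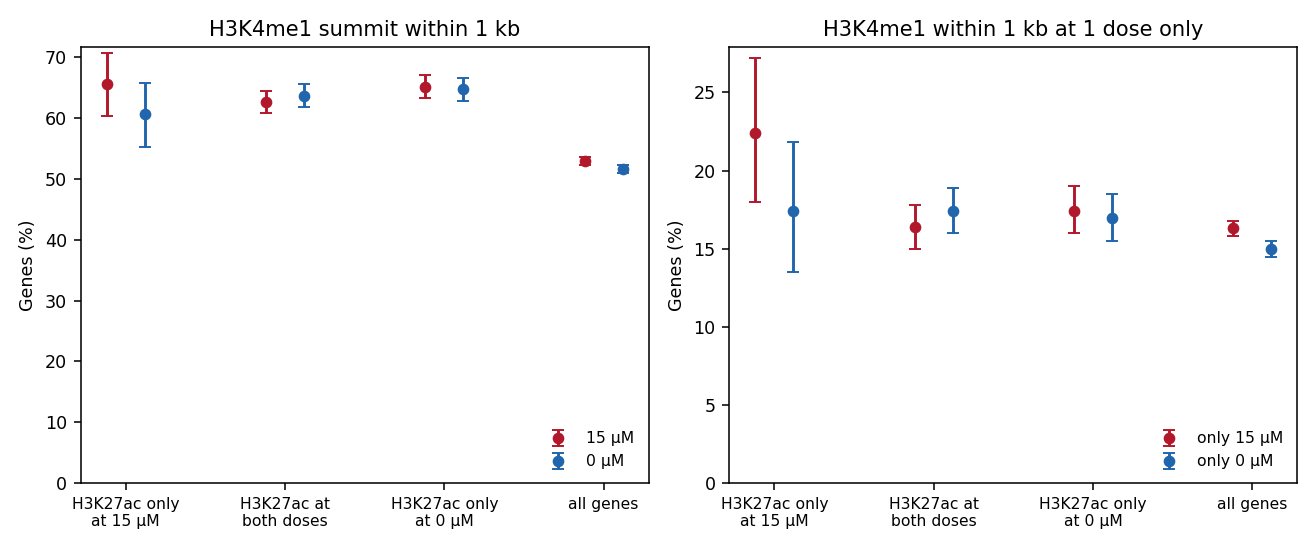
Percent of genes with an H3K4me1 summit within 1 kb of an end (left) and with one at a single dose (right), for the 340 genes, ends with H3K27ac at both doses, ends with it only at 0 µM and all genes, with exact Clopper-Pearson 95% intervals that cover counting error only. Among the 340 genes the 15 µM share is 65.6% and the 0 µM share 60.6%, both taken over the same genes.

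The position of H3K4me1 around the ends differed little between the doses. The nearest summit lay a median of 786 bp from the member ends at 15 µM and 808 bp at 0 µM. From 0 to 1 kb inside the gene there were 85 summits at 15 µM and 80 at 0 µM, and from 1 to 2.5 kb inside 262 at 15 µM and 279 at 0 µM. The dip at the end with flanks on both sides is the usual form of H3K4me1 at promoters. Ends with H3K27ac at both doses had 20.2 H3K4me1 summits per 100 genes in the first 1 kb inside at 15 µM and 22.9 at 0 µM, and the members had 25 at 15 µM and 23.5 at 0 µM.

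The 13 members whose H3K4me1 end also was listed only at 15 µM were SNRPE, MYO18A, NIPA2, GUF1, MRPL15, LATS2, ALDH1A1, C1orf52, RBM15B, PPM1K, CD276, STK17A and RAMP1. They were named after their values were seen, and their top H3K4me1 scores at 15 µM ran from 1.54 to 5.80, against a list median of 3.47. CD276, an immune checkpoint protein, had the highest, 5.80. SNRPE, a core protein of the spliceosomal snRNPs, had 2 H3K4me1 summits within 1 kb at 15 µM, the higher with a score of 2.20. LATS2, a kinase of the Hippo pathway, had 1 with a score of 1.54, near the lowest listed. RBM15B, an RNA-binding protein, had 1 at 4.58, and its nearest 0 µM H3K4me1 summit was 4385 bp away. The 9 with an H3K4me1 end only at 0 µM, named in the same way, were ZBTB3, TBC1D31, PSMB6, LOC124905081, IDH3G, LRP11, SSR4, ZNF860 and CLIP3. PSMB6, a catalytic subunit of the proteasome, had 2 H3K4me1 summits at 0 µM, the higher with a score of 6.35, and at 15 µM none nearer than 7844 bp.

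Some members with H3K4me1 within 1 kb only at 15 µM had high H3K4me1 scores. PROC, the gene of the anticoagulant plasma protein C, had 2 summits with a top score of 19 at 15 µM, and its nearest 0 µM summit was 1424 bp away. ABCA6, an ABC transporter, had 1 at 14, AAMP had 3 with a top score of 12.9 and REEP6 had 1 at 10.8. In each of these 4 the nearest 0 µM summit lay 1100 to 1424 bp from the end, so they stood on the edge of the 1 kb window. In the opposite class, NQO1 had 2 H3K4me1 summits at 0 µM with a top score of 10.8, and its nearest at 15 µM was 1164 bp away. ERO1A, an oxidase of disulfide formation in the endoplasmic reticulum, had 1 at 9.63, and the ribosome biogenesis gene LLPH and GRPEL2, a co-chaperone of mitochondrial import, had a top score of 8.50 each.

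A further 58 members had no H3K4me1 within 1 kb at either dose. SRRM1 was the highest of them by H3K27ac score, with its nearest H3K4me1 summit 1265 bp away at 15 µM and 1059 bp at 0 µM. CYP2C18 had 2578 bp at 15 µM and 1299 bp at 0 µM. ZNF254, a C2H2 zinc-finger gene with an H3K27ac score of 15.1, had 1414 bp at 15 µM and 1184 bp at 0 µM, and PTPRG, a receptor tyrosine phosphatase with 14.6, had 1863 bp at 15 µM and 1929 bp at 0 µM. NUDT8, a mitochondrial Nudix hydrolase, and H2BC11 were the others of the 6 highest.

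Beyond the ends themselves, the ratio of H3K27ac summits around the members was near the ratio of the list lengths. Within 50 kb of the ends the 340 genes had 1571 H3K27ac summits at 15 µM, against 1437 at 0 µM. Scaled by list length the ratio was 1.42, against 1.09 around ends with H3K27ac at both doses and 0.913 over all genes. Leaving out the 2 kb at each end, which the rule clears of 0 µM summits, there were 1158 at 15 µM and 1437 at 0 µM, a ratio of 0.806 where the list lengths give 0.772. With the ends kept in, the unscaled ratio was 0.705 over all genes and 0.843 around ends with H3K27ac at both doses. A ratio without the ends was not computed for these. Outside the ends and without scaling by list length, 55 members had more H3K27ac summits at 15 µM, 175 had fewer and 110 had equal numbers. At 76 members the 0 µM list had no summit in the window at all, and at 71 of these the 15 µM list had only the summit at the end. H3K4me1 differed little, with 9471 summits at 15 µM and 9235 at 0 µM, a scaled ratio of 1.01, as over all genes.

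A few members lay in windows with many more 15 µM summits. TUBD1, the delta-tubulin gene, had 28 H3K27ac summits at 15 µM against 16 at 0 µM. AFM had 22 at 15 µM and 13 at 0 µM, while H3K4me1 there ran the other way, with 32 at 15 µM and 49 at 0 µM. CEACAM19 had 26 at 15 µM and 17 at 0 µM, MYO18A, an unconventional myosin, had 21 at 15 µM and 11 at 0 µM, and the divergent pair WDR87 and SIPA1L3 had 16 at 15 µM and 4 at 0 µM. At TUBD1, too, H3K4me1 was lower, with 20 at 15 µM and 39 at 0 µM.

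Other members had fewer H3K27ac summits around them at 15 µM despite the summit at the end. PSMB6 had 3 at 15 µM and 10 at 0 µM, COPS7A, a subunit of the COP9 signalosome, had 1 at 15 µM and 7 at 0 µM, and C1orf52 had 2 at 15 µM and 8 at 0 µM. SSTR2, a somatostatin receptor, had 3 at 15 µM and 9 at 0 µM. For H3K4me1 the 5 highest scaled differences were at CD3E, with 39 at 15 µM and 18 at 0 µM, POPDC1, with 47 at 15 µM and 26 at 0 µM, ABCA6, with 70 at 15 µM and 49 at 0 µM, ABCA10, with 53 at 15 µM and 37 at 0 µM, and MTDH, with 31 at 15 µM and 17 at 0 µM. The transferrin receptor gene TFRC was among the lowest, with 16 at 15 µM and 30 at 0 µM.

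**Figure D4:**
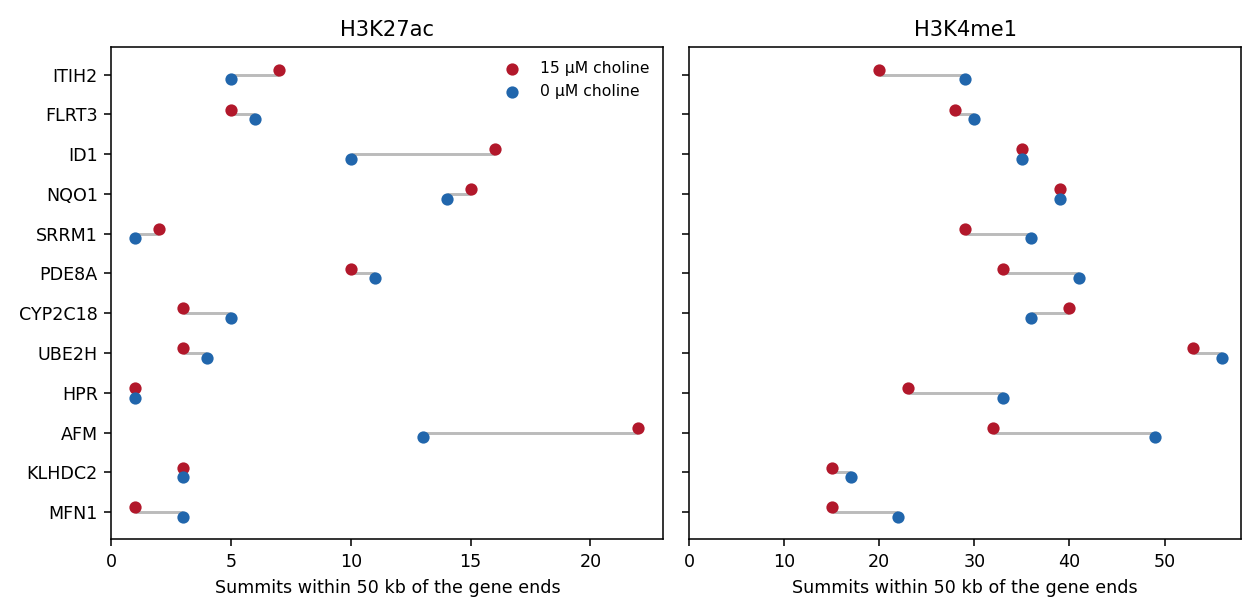
H3K27ac (left) and H3K4me1 (right) summits within 50 kb of the ends at 15 µM (red) and 0 µM (blue) choline for the 12 members with the highest 15 µM score. AFM and ID1 have more H3K27ac summits at 15 µM, and AFM, HPR and ITIH2 have fewer H3K4me1 summits at 15 µM.

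No member came from the lists of core hepatocyte genes, liver transcription factors or choline use. None of 36 hepatocyte plasma proteins and enzymes, none of 26 liver transcription factors and none of 30 genes of choline uptake and phosphatidylcholine synthesis was a member. Of the hepatocyte genes 22 had H3K27ac at an end at 15 µM, 19 of them at both doses, of the liver factors 15, with 14 at both, and of the choline genes 12, all at both. ITIH2 was the member of a separate list of 22 inter-alpha-trypsin and plasma protease inhibitors, and HPR and AFM, which no list held, are plasma proteins too. Of 29 genes of the betaine, methionine and folate cycles, 1 was a member, MTHFD1L, a mitochondrial enzyme of formate production, with a score of 10.7. No factor of 26 in the KLF and SP family was a member, and 6 had H3K27ac ends at both doses. These counts are to be read against the 1.70% of all genes that were members.

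Subunits of the mitochondrial ribosome and of the respiratory chain gave 9 members. This was 5.52% of the 163 genes listed, against 1.70% of all genes, and 23.1% of the 39 with H3K27ac at an end at 15 µM, against 10.5% over all genes with such an end, and 29 of the 39 had it at both doses. The mitochondrial ribosome gave MRPL13, MRPL15, MRPL21, MRPS24 and MRPS28, and the respiratory chain and ATP synthase gave ATP5F1C, NDUFC2, SDHA and UQCR10. MRPL15 had the highest score of the 9, 13.2, and ATP5F1C and MRPL13 the lowest, 7.13 each. A further 42 of the 163 had H3K27ac at an end only at 0 µM, against 2482 of 19974 over all genes. Both single-dose classes thus made up a larger share of this list than of all genes. So did the class with H3K27ac at both doses, with 29 of 163 against 2696 of 19974. ATP5F1C, MRPL13, MRPL21, NDUFC2, SDHA and UQCR10 each shared the top summit with another member.

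Other metabolic lists gave 1 to 7 members, to be read against 1.70% of all genes and 10.5% of genes with a 15 µM end. Among 55 cytochrome P450 genes 3 were members (5.45%), CYP2C18, CYP39A1 and the leukotriene hydroxylase CYP4F3, of 7 with H3K27ac at 15 µM. Among 32 genes of fatty acid synthesis and storage 2 were members (6.25%), both lipid droplet proteins. CIDEC had a score of 8.41, with H3K4me1 at both doses, and PLIN3 had 9.46, with no 0 µM H3K27ac within 114648 bp and no H3K4me1 within 1 kb at either dose. In the sterol list the isoprenoid enzyme IDI1 was the single member of 28 (3.57%), with 7.00. Solute carriers gave 7 of 379 (1.85%). Among them were the glucose transporter SLC2A2, whose score of 14.4 was at its 3′ end, and the iron transporter SLC11A2, with 7.00.

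Signalling and regulatory lists gave 0 to 3 members each, to be read against 1.70% of all genes. NQO1 was the member from 27 genes of the antioxidant response, ID1 from 22 of ID and BMP signalling, LATS2 from 25 of the YAP and TEAD pathway, ZNRF3 from 41 of Notch and Wnt signalling and MYCN from 35 of the cell cycle and MYC family. These single genes were 2.44% to 4.55% of their lists. The glucocorticoid receptor gene NR3C1 was the member from 48 nuclear receptors (2.08%), with a score of 5.99 at its 3′ end. IGF2BP1, an oncofetal RNA-binding protein, had 12.3, with 3 summits within 2 kb. Ubiquitin-conjugating enzymes gave UBE2H, UBE2Q1 and UBE2Z of 36 (8.33%), and splicing factors gave RBM15B, SNRPE and SRRM1 of 116 (2.59%). Phosphodiesterases gave PDE6D and PDE8A of 24 (8.33%), and histone genes gave H2BC11 of 94 (1.06%). Immediate early genes gave none of 24 and the amino acid and endoplasmic reticulum stress list none of 21.

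The lists of genes that all cells use and of other cell types gave 0 to 5 members each, to be read against 1.70% of all genes. Of 31 ubiquitous genes, 2 were members (6.45%), EMC7 and SDHA, against 9 with H3K27ac at an end only at 0 µM. C2H2 zinc-finger genes named ZNF gave 5 of 517 (0.967%), against 82 only at 0 µM. Of 24 blood cell markers 2 were members (8.33%), CD3E with a score of 10.3 and PPBP with 6.97, and 3 of the 24 had any H3K27ac end at 15 µM. CD3E had its summit 644 bp outside an end, and PPBP had it near the 3′ end. No gene of 20 fibroblast, stellate and endothelial markers, 20 neuron and muscle markers or 13 biliary and progenitor markers was a member. These lists were chosen with earlier results of these data known, and no list was tested.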

How the data were processed

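The authors deposited, for each ChIP-seq library, a list of summits whose score column was taken as −log10 of a p-value (or of a q-value) from its layout. Per the submitters' processing notes, MACS2, Bowtie, Picard and deepTools were used, with no versions given, on build hg38. The peak-calling settings, the use of input libraries and read depth are not given in the sources used here. Peak names in the H3K4me1 lists carry letters and not doses, so the dose was taken from the labels. Scores were compared only within a list. Gene positions, strand and promoters came from RefSeq tables of GRCh38.p14. Positions were written 1-based.

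Distances, counts and exact Clopper-Pearson 95% intervals were computed in Python 3.11.15 with numpy 2.4.6, pandas 2.3.3 and scipy 1.17.1. Intervals cover counting error only. No p-value was computed, since each mark and dose had 1 library. For each gene, both lists were counted in windows reaching 50 kb from its ends and scaled by the ratio of list lengths. The call rule was tested on simulated data.

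The members and the 30 gene lists were chosen with earlier results of these data known. Named members were those with the 12 highest scores, the 8 farthest from and the 5 on either side of the limit for 0 µM H3K27ac, the 6 with the most summits, the 6 highest of each single-dose or empty H3K4me1 class, the 5 highest and 5 lowest window differences, and those in gene lists. Others are said to be chosen after their values were seen. Some genes that the rule takes are not reported here by name.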

Additional observations from a re-analysis of the deposited data

How the results depend on the processing

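Of 53 alternatives, 32 moved a value by less than the limit set for it and 21 moved it further. A change of direction could be scored only for the H3K4me1 difference and the window ratios, where 0 changed. The H3K27ac windows include the ends that the rule clears of 0 µM summits. The count of genes was 532 with the 0 µM list clear for 1 kb only, 184 with it clear for 10 kb, and 120 with 15 µM summits above the median score. With the 0 µM H3K27ac list cut by score to the length of the shorter 15 µM list, the count was 468. It includes all 340 by construction, since this cut only removes 0 µM summits. The H3K4me1 share at 15 µM was 32.9% within 500 bp, 94.7% within 2 kb and 45.0% with summits above the median score. At 0 µM it was 30.0%, 92.1% and 37.4% under these settings, and 54.9% at the members clear for 10 kb. The 13 members with an H3K4me1 end only at 15 µM became 7 within 500 bp, 3 within 2 kb, 24 with summits above the median score and 7 at the members clear for 10 kb. The 9 with one only at 0 µM became 5 within 500 bp, 4 within 2 kb and 5 at the members clear for 10 kb. The scaled H3K27ac ratio was 1.82 in 20 kb windows and 1.28 in 100 kb windows. The median distance to 0 µM H3K27ac was 23664 bp with 0 µM summits above the median score, and the share at the start was 93.7% at the members clear for 10 kb. Counts at the members clear for 10 kb were taken over 184 genes and not 340, and were not scaled. A wider distance can only raise the H3K4me1 share, and a longer clear distance can only lower the count of genes. The cause of the other shifts was not tested. The difference in H3K4me1 share, 5.00 points, ranged between 2.65 and 7.65 points. No pairing of libraries was possible because each mark and dose has 1 library, and no replicate could be left out. Base composition of the promoters was not run under its alternatives, because 76.5% of the members had a sequence. Depth is unknown, so a summit missing from the 0 µM list is not shown to be absent from the chromatin.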

Other observations

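Reading the list of members showed some groups of related genes, part of which the gene lists also hold. They were chosen after their values were seen, so their sizes carry no weight. Plasma proteins were ITIH2, HPR, AFM, PROC, LCAT, CFB, C4A and CFD, with a median 15 µM H3K27ac score of 13.2. All 8 had H3K4me1 within 1 kb at 15 µM, and 7 had it at 0 µM. Their 50 kb windows held 211 H3K4me1 summits at 15 µM and 248 at 0 µM. LCAT, the enzyme that esterifies plasma cholesterol, shared its summit of score 13.2 with SLC12A4. The complement genes C4A, CFB and CFD had scores of 11, 10.7 and 6.42, with the summit of CFB at its 3′ end.

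Enzymes of drug and xenobiotic metabolism were NQO1, CYP2C18, CYP4F3, FMO1, NAT1, SULT1C2, ALDH1A1 and MGST3, with a median score of 12.1. FMO1, a flavin monooxygenase, had 15.0 at a summit 15 bp from its start, with H3K4me1 at both doses. NAT1, an arylamine acetyltransferase, had 12, with no 0 µM H3K27ac within 86182 bp. ALDH1A1, a retinal dehydrogenase, had 12.3 in a dense window of 28 H3K27ac summits at 15 µM and 25 at 0 µM. Lysosomal and peroxisomal genes were CTSB, CTSO, TFE3, RRAGC, MIOS, PEX14, PEX16 and AGPS, with a median score of 10.2. CTSB, the gene of the protease cathepsin B, was the highest of them with 13.2 and had 6 H3K27ac summits in its window at each dose. Genes of lipid transport and bile acids were GPBAR1, CYP39A1, ABCA6, ABCA10, OSBPL9, DBI, PLIN3 and CIDEC, with a median score of 9.81. DBI, the acyl-CoA binding protein, had 13.2, and its H3K4me1 within 1 kb was listed only at 0 µM. GPBAR1, a bile acid receptor, had 8.27 at a summit 943 bp beyond its 3′ end, which it shares with AAMP.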
